A study of Homo sapiens with 5 samples.

Results

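ANKRD11, SRCAP and ARID4B encode chromatin regulators, and 212 of the 80514 SRSF9 peaks deposited for the series lay on these 3 genes. SRSF9 is a serine/arginine-rich splicing factor. Its binding to RNA was mapped by eCLIP, in which RNA crosslinked to a protein is fragmented, recovered with that protein from a membrane and sequenced. The cells were HEK 293T, a human embryonic kidney line, and overexpressed SRSF9 together with ADAR2 (2 libraries) or SRSF9 alone (2 libraries). ADAR2 is a deaminase that turns adenosine into inosine in double-stranded RNA. All groups therefore carried extra SRSF9, and no library without SRSF9 overexpression was used here. An input library (1) came from cells overexpressing both proteins and has no column of its own in the peak table. The labels name an anti-SRSF9 antibody, whereas the protocol names beads coupled for MYC. The series asks how SRSF9 represses ADAR2 targets, and the table sets SRSF9 peaks with ADAR2 beside those without it. Whether the 2 libraries of a condition stem from different cultures is not in the labels, and their spread may be technical.

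A peak was counted for a gene when it overlapped the gene's hg19 interval by at least 1 nt. The intervals were chromosome 16 from 89334 to 89557 kb for ANKRD11, chromosome 16 from 30710 to 30752 kb for SRCAP and chromosome 1 from 235330 to 235492 kb for ARID4B. ANKRD11 held 124 peaks, SRCAP 31 and ARID4B 57. The genes were picked with the peak numbers and classes of these data already known. Numbers of peaks and their ratios are therefore given as a description and were not tested. The lengths of the intervals, 223, 42 and 162 kb, lie close to the RefSeq gene lengths of 222.9, 42.2 and 161.3 kb. The GENCODE genes measure 222.9, 43.2 and 196.6 kb, so that of ARID4B is longer than its interval, and what GENCODE gives for ARID4B refers to the longer gene. The table carries no gene name and no strand, so a peak from an overlapping gene cannot be told apart from one of these 3 genes. GENCODE, on GRCh38, lists 6 other genes overlapping ANKRD11, 5 of them on the opposite strand, among them the antisense RNAs AC137932.1 and AC137932.3. It lists 6 overlapping SRCAP, among them the small nucleolar RNA gene SNORA30 and, on the same strand, TMEM265. It lists 4 overlapping the longer ARID4B, among them RBM34 on the same strand and GGPS1, which lies on the opposite strand at its start.

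ANKRD11 is a large nuclear protein with ankyrin repeats that binds nuclear receptor coactivators and recruits histone deacetylases, and its loss causes KBG syndrome. SRCAP is the ATPase of a remodelling complex that places the histone variant H2A.Z into nucleosomes, and truncation of it causes Floating-Harbor syndrome. ARID4B is a subunit of the SIN3 histone deacetylase complex, a corepressor. SR proteins bind exons and introns of the pre-mRNAs of many genes and influence how they are spliced. By GENCODE, exons make up 8.76% of the ANKRD11 gene, 31.7% of SRCAP and 5.63% of ARID4B, the rest being intron. Peaks could not be placed in exons or introns, because no annotation on hg19 was at hand. For want of the same annotation, the other subunits of the SIN3 and SRCAP complexes and the partners of ANKRD11 were not analysed here.

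The values are the authors' ratios for each peak and library, read here as log2. The table does not name the denominator of the ratio or its scale. Values above and below 0 are therefore given as positive and negative ratios, with no statement on which signal was larger. The columns of a condition carry no replicate name, so they are called the first and the second library in the order of the table. Read depths are unknown. Every peak of the table had the same sign in both libraries of a condition. With ADAR2, 70106 of 75751 peaks were above 0 in both libraries and 5645 below 0 in both. Without it, 6361 of 8565 were above 0 in both and 2204 below. Agreement in sign between libraries was thus a property of the table and gives no separate support to a peak. Of the whole table, 94.1% of the peaks were present with ADAR2 and 10.6% without it. The median ratio was 1.16 and 1.06 in the libraries with ADAR2, and 1.07 and 0.24 in the SRSF9-only libraries.

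Most peaks on all 3 genes were present only when ADAR2 was co-expressed. ANKRD11 had 113 peaks only with ADAR2, 5 only without it and 6 shared by both conditions. ARID4B had 53 only with ADAR2, 4 only without it and none shared. SRCAP had 27 only with ADAR2, 4 only without it and none shared. Peaks only with ADAR2 made up 91.1% (95% Wilson interval 84.8 to 94.97) of the ANKRD11 peaks, 87.1% (71.1 to 94.9) of the SRCAP peaks and 93.0% (83.3 to 97.2) of the ARID4B peaks. The same share of the whole table was 89.4%, inside each of these intervals, whose only source of error is the counting of peaks. The 0 shared peaks of SRCAP allow a share of up to 11.03% and the 0 of ARID4B up to 6.31%, both upper Wilson bounds, while the share in the table was 4.72%. The table holds 1 peak set for each condition, so these numbers have no spread between libraries.

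SRCAP was the most densely covered of the 3 genes. It held 64.3 peaks with ADAR2 in 100 kb, against 53.4 on ANKRD11 and 32.7 on ARID4B. Without ADAR2 these densities were 9.52, 4.93 and 2.47 in 100 kb. The peaks of both conditions together covered 3.03% of the SRCAP interval, 1.98% of ANKRD11 and 1.34% of ARID4B. SRCAP is also the gene of the 3 with the largest share of exon, and its part in the order of densities was not tested.

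Peaks crowded at the end of each interval where the gene starts. ANKRD11 and ARID4B are transcribed towards lower coordinates and SRCAP towards higher ones, by RefSeq on GRCh38, and distances are given from that end. The 10 kb nearest to it held 16 peaks on ANKRD11, 15 on SRCAP and 17 on ARID4B. These were the fullest 10 kb bins of each gene. Of all 31724 bins of 10 kb in the genome that held a peak, 0.334% held 15 peaks or more, 0.218% held 16 or more and 0.148% held 17 or more, and the median bin held 2. The choice of 10 kb was made after the peaks were seen. The genes were picked with their peak numbers known, so these shares do not measure how unusual the bins are. The genome bins also lie on a fixed grid, whereas those of the genes begin at the start end.

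The crowding was steepest on ARID4B. Its 10 kb at the start, 6.17% of the interval, held 29.8% of its peaks (95% Wilson interval 19.5 to 42.7), and the next 10 kb held 13 more. Further along, no 10 kb bin of ARID4B held more than 4 peaks. On SRCAP, the 10 kb at the start were 23.8% of the interval and held 48.4% of the peaks (31.97 to 65.2). On ANKRD11 they were 4.48% of the interval and held 12.9% (8.10 to 19.9). Outside these 10 kb the density was 5.07 peaks in 10 kb on ANKRD11, 5.00 on SRCAP and 2.63 on ARID4B. From 10 to 140 kb every bin of ANKRD11 held between 2 and 11 peaks. The 3 bins from 180 to 210 kb then held 5, 9 and 5. Peaks only without ADAR2 also lay in the 10 kb at the start, with 2 of 5 on ANKRD11, 3 of 4 on SRCAP and 3 of 4 on ARID4B.

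**Figure D1:**
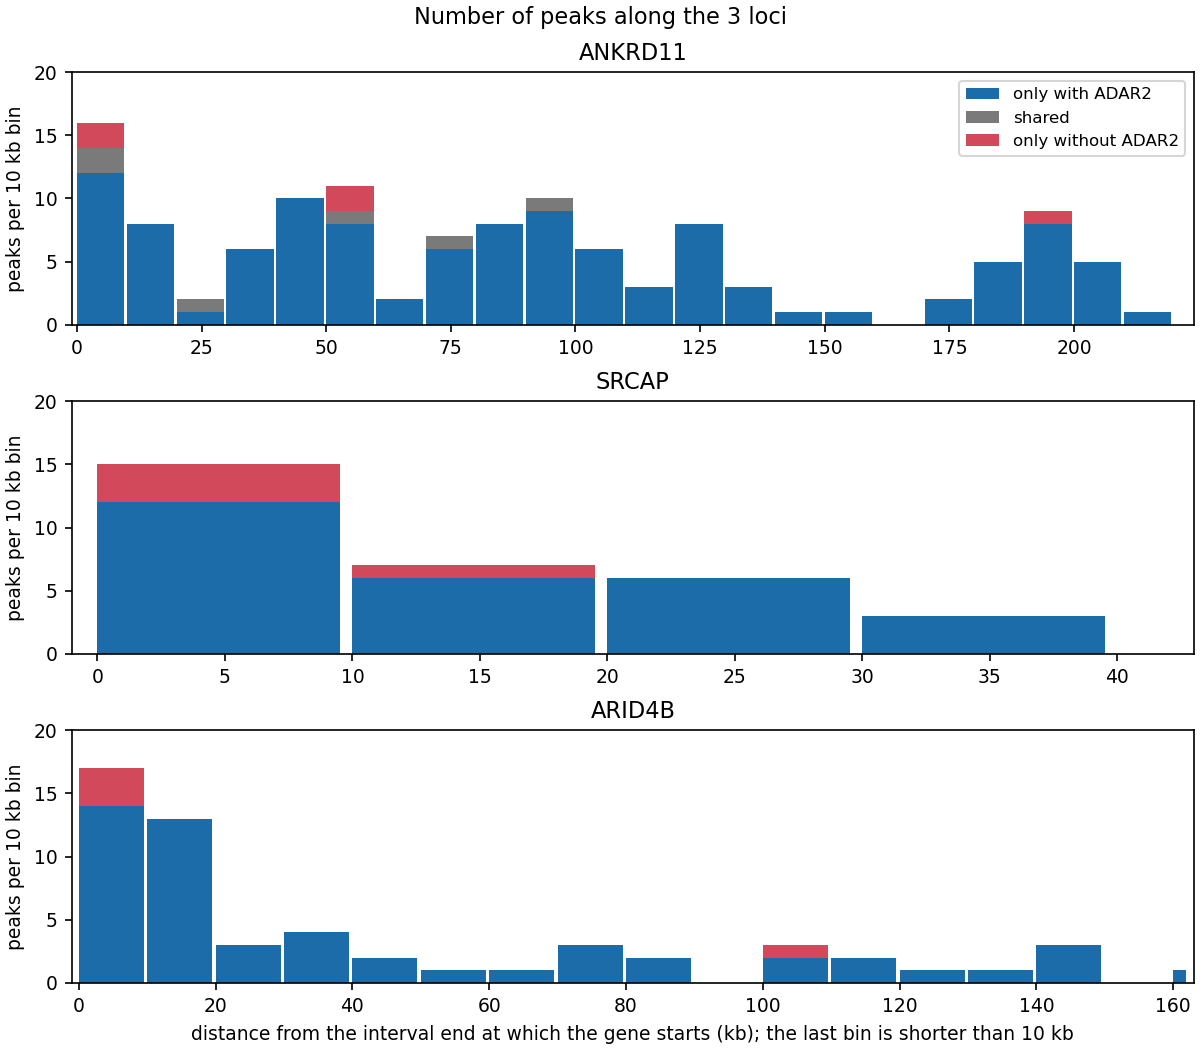
Number of SRSF9 peaks in bins of 10 kb along ANKRD11, SRCAP and ARID4B, measured in kb from the interval end at which each gene starts; blue, grey and red parts of a bar are peaks only with ADAR2, shared and only without ADAR2. The bin at the start is the fullest in each gene, with 16, 15 and 17 peaks.

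Long stretches held no peak. On ANKRD11 the longest ran for 22.1 kb, on chromosome 16 from 89383432 to 89405546. On ARID4B it ran for 17.3 kb, on chromosome 1 from 235390302 to 235407636, and on SRCAP for 5.11 kb, on chromosome 16 from 30740757 to 30745863. ANKRD11 also lacked peaks over the last 12.9 kb of its interval, and SRCAP over the last 4.44 kb. The median distance between neighbouring peaks was 871 nt on ANKRD11, 494 nt on SRCAP and 984 nt on ARID4B. Neighbours lay up to 1 kb apart in 67 of 123 cases on ANKRD11, 18 of 30 on SRCAP and 29 of 56 on ARID4B. No peaks of a gene overlapped each other.

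The edges of the intervals cut the data at different places. On ARID4B the outermost peak inside lay 26 nt from the upper edge, with -0.46 and -0.06 in the libraries with ADAR2. The next peak, 34 nt beyond that edge, had 1.81 and 1.80. This is the end at which GENCODE places GGPS1 on the opposite strand. On SRCAP the outermost peak inside lay 8 nt from the lower edge, with 1.502 and 1.493, and the next outside was 587 nt away with 0.81 and 0.48. On ANKRD11 the outermost peak lay 45 nt inside the upper edge with 1.02 and 0.65, and no further peak followed for 19935 nt. At the other ends of the intervals the nearest peaks inside and outside were at least 1930 nt from the edge.

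Peaks on ANKRD11 had low ratios with ADAR2, and those on ARID4B came close to the table. The median over the 119 ANKRD11 peaks with ADAR2 was 0.56 in the first library (quartiles 0.00 and 1.11) and 0.74 in the second (0.03 and 1.33). Over the 27 SRCAP peaks it was 1.07 (0.75 and 1.62) and 0.65 (0.32 and 1.14). Over the 53 ARID4B peaks it was 1.07 (0.33 and 2.07) and 1.06 (0.21 and 1.44). On ANKRD11 both libraries thus lay below the medians of the whole table, while on SRCAP mainly the second did. The libraries also differed in order between the genes. The first library exceeded the second in 39.5% of the ANKRD11 peaks (95% Wilson interval 31.2 to 48.5), in 77.8% of the SRCAP peaks (59.2 to 89.4) and in 64.2% of the ARID4B peaks (50.7 to 75.7), against 61.1% over the whole table. Between the libraries with ADAR2, Spearman's rho across the 119 ANKRD11 peaks was 0.85, across the 27 SRCAP peaks 0.71, across the 53 ARID4B peaks 0.80 and across the 75751 peaks with ADAR2 in the series 0.67. The points of such a correlation share their libraries and, if there was one, the denominator. The table also holds only peaks whose sign is the same in both libraries, and the share below 0 differs between the genes. The part of this in rho was not tested, so these values do not measure how well the libraries reproduce each other.

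**Figure D2:**
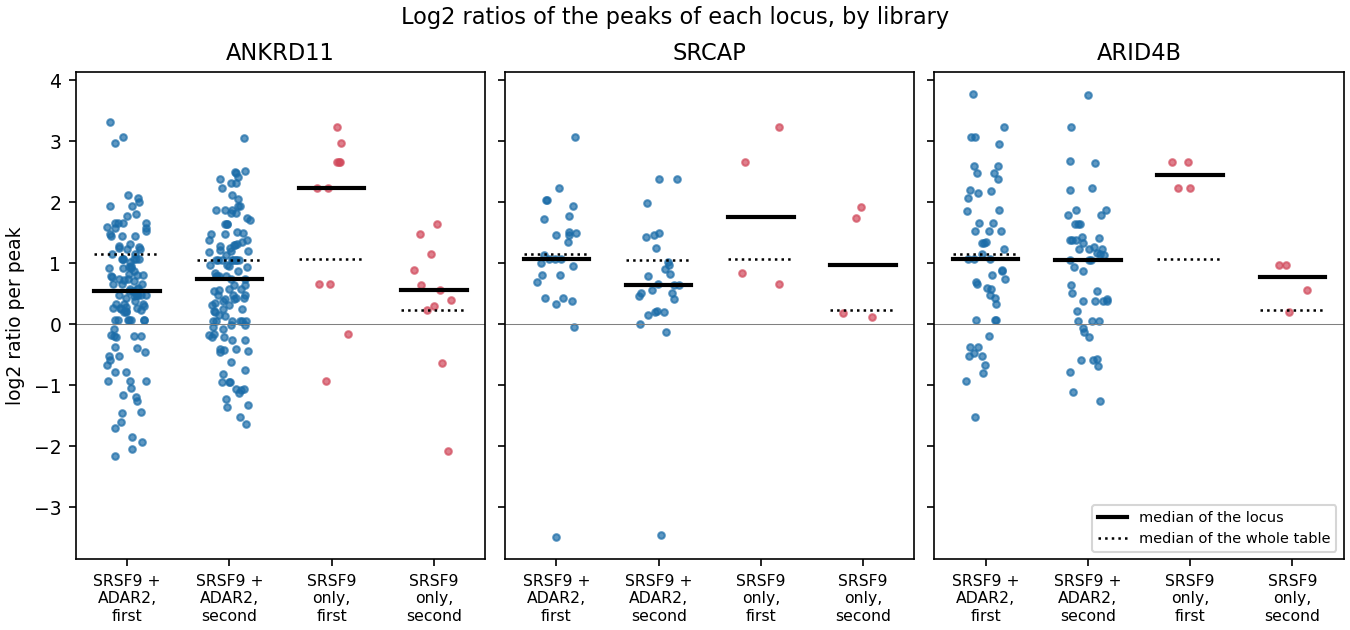
Log2 ratio of each peak (points) on ANKRD11, SRCAP and ARID4B in the first and second library with ADAR2 (blue) and the first and second SRSF9-only library (red); solid lines are the medians of the gene and dotted lines those of the whole table. With ADAR2 the ANKRD11 medians of 0.56 and 0.74 lie below the table's 1.16 and 1.06, and in the SRSF9-only libraries the medians of all 3 genes lie above the table's.

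ANKRD11 had many peaks with a negative log2 ratio. With ADAR2, 30 of its 119 peaks were below 0 in both libraries, 25.2% (95% Wilson interval 18.3 to 33.7). Because every peak of the table had the same sign in both libraries, either library alone gives this count. On ARID4B these were 10 of 53, 18.9% (10.6 to 31.4), and on SRCAP 2 of 27, 7.41% (2.06 to 23.4). Over the whole table the share was 7.45%, below the intervals of ANKRD11 and ARID4B and inside that of SRCAP. This order depended on where 0 was set. With each library centred on its median over the table, a choice made after the data were seen, the shares were 57.1% on ANKRD11, 55.6% on SRCAP and 35.8% on ARID4B, against 34.7% in the table. ARID4B then lay close to the table and SRCAP above it, while ANKRD11 was above it both ways. The intervals treat peaks as separate counts, although neighbours share a transcript. Of 795 windows of 100 kb with at least 20 peaks with ADAR2, 4.28% had a share as high as ANKRD11 and 10.9% one as high as ARID4B, and the median share was 6.45%. These windows also differ from the genes in length and in number of peaks. Peaks above 1 in both libraries made up 26.1% on ANKRD11 (19.0 to 34.6), 29.6% on SRCAP (15.9 to 48.5) and 45.3% on ARID4B (32.7 to 58.5), against 43.0% in the table.

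The peaks below 0 on ANKRD11 were spread over 14 of its 10 kb bins. Between 80 and 90 kb from the start end they were 5 of 8 peaks with ADAR2, and between 110 and 120 kb 3 of 3. In the 10 kb at the start they were 3 of 14. Their median width was 25 nt, against 39 nt for the ANKRD11 peaks above 0. In the whole table these widths were 30 and 35 nt. The means of 9 of the 30 peaks lay within 0.5 of 0, and those of 7 lay below -1. Of the 5645 peaks below 0 in the whole table, 2366 had a mean within 0.5 of 0 and 1081 one below -1. The medians of the 30 ANKRD11 peaks were -0.86 and -0.54 in the first and second library. Those of the 10 peaks below 0 on ARID4B were -0.52 and -0.59, and the mean of 1 of the 10 lay below -1. Which gene had the lower median thus depended on the library. No source used here states how far 0 on these scales marks equal signal.

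**Figure D3:**
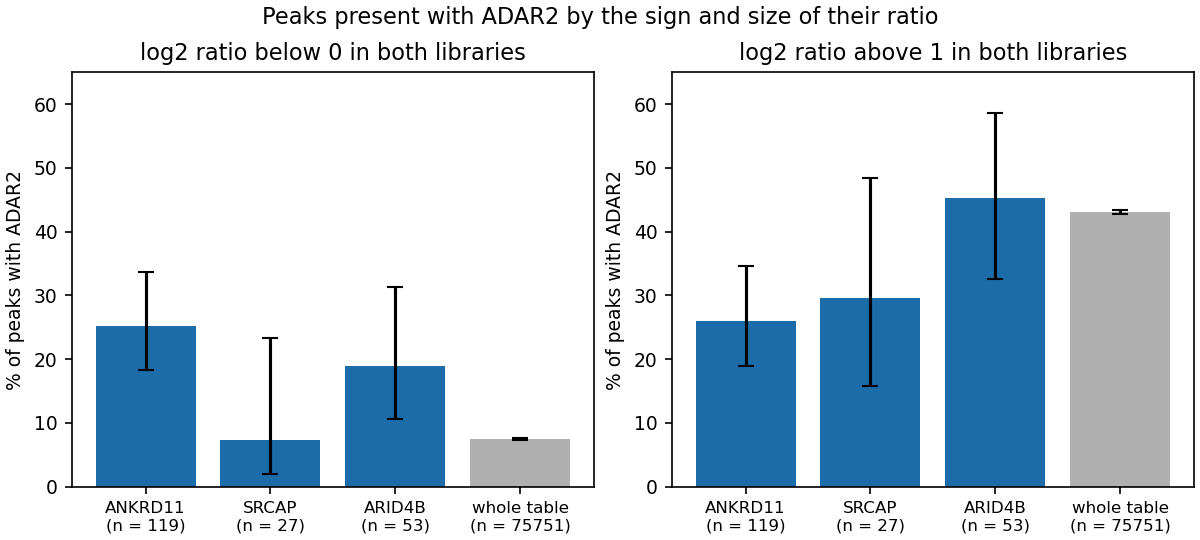
Percentage of the peaks present with ADAR2 whose log2 ratio was below 0 in both libraries (left) or above 1 in both (right), for ANKRD11, SRCAP, ARID4B and the whole table (grey); error bars are 95% Wilson intervals over peaks. ANKRD11 has 25.2% below 0 and 26.1% above 1, against 7.45% and 43.0% in the whole table. Every peak of the table has the same sign in both libraries. After centring each library on its median the shares below 0 became 57.1%, 55.6% and 35.8%, against 34.7% in the table (not drawn).

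The strongest single peak of the 3 genes was on ARID4B. It lay on chromosome 1 from 235483662 to 235483710, found only with ADAR2, with 3.24 and 3.76 in the 2 libraries and a mean of 3.50 ± 0.37 (SD, n = 2). It sits 8.31 kb from the start end, 44 nt from the next peak. The next strongest ARID4B peak, from 235346949 to 235347000, had 3.07 and 3.23 and lay 145.0 kb from the start end, so strong peaks were not limited to the crowded end. A peak of 1 nt at 235490370 had 3.77 and 2.20, and its libraries lay further apart than those of the other strong ARID4B peaks. The lowest ARID4B peak, from 235466525 to 235466541, had -1.52 and -0.68.

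On ANKRD11 the strongest peaks reached lower values than on ARID4B. The highest lay on chromosome 16 from 89513846 to 89513921, only with ADAR2, with 2.98 and 2.49 and a mean of 2.73 ± 0.34 (SD, n = 2). The next, from 89553839 to 89553857, had 3.07 and 2.38 and lay 3.15 kb from the start end. Another, of 6 nt, from 89555892 to 89555897, had 3.32 and 1.87. The lowest ANKRD11 peak, from 89537586 to 89537589, had -2.15 and -1.64.

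SRCAP held the lowest value of the 3 genes. A peak of 12 nt on chromosome 16 from 30721896 to 30721907, only with ADAR2, had -3.49 and -3.46, a mean of -3.47 ± 0.023 (SD, n = 2). The only other SRCAP peak below 0 had -0.04 and -0.13. Whether that low peak lies in SNORA30, which sits inside SRCAP on GRCh38, could not be read from the hg19 table. The highest SRCAP peak, of 6 nt from 30747559 to 30747564, had 3.07 and 2.38, the same pair of values as the ANKRD11 peak from 89553839. The next, from 30710247 to 30710261, had 2.04 and 2.38 and lay at the start end. Another, from 30723438 to 30723470, had 2.23 and 1.44.

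**Figure D4:**
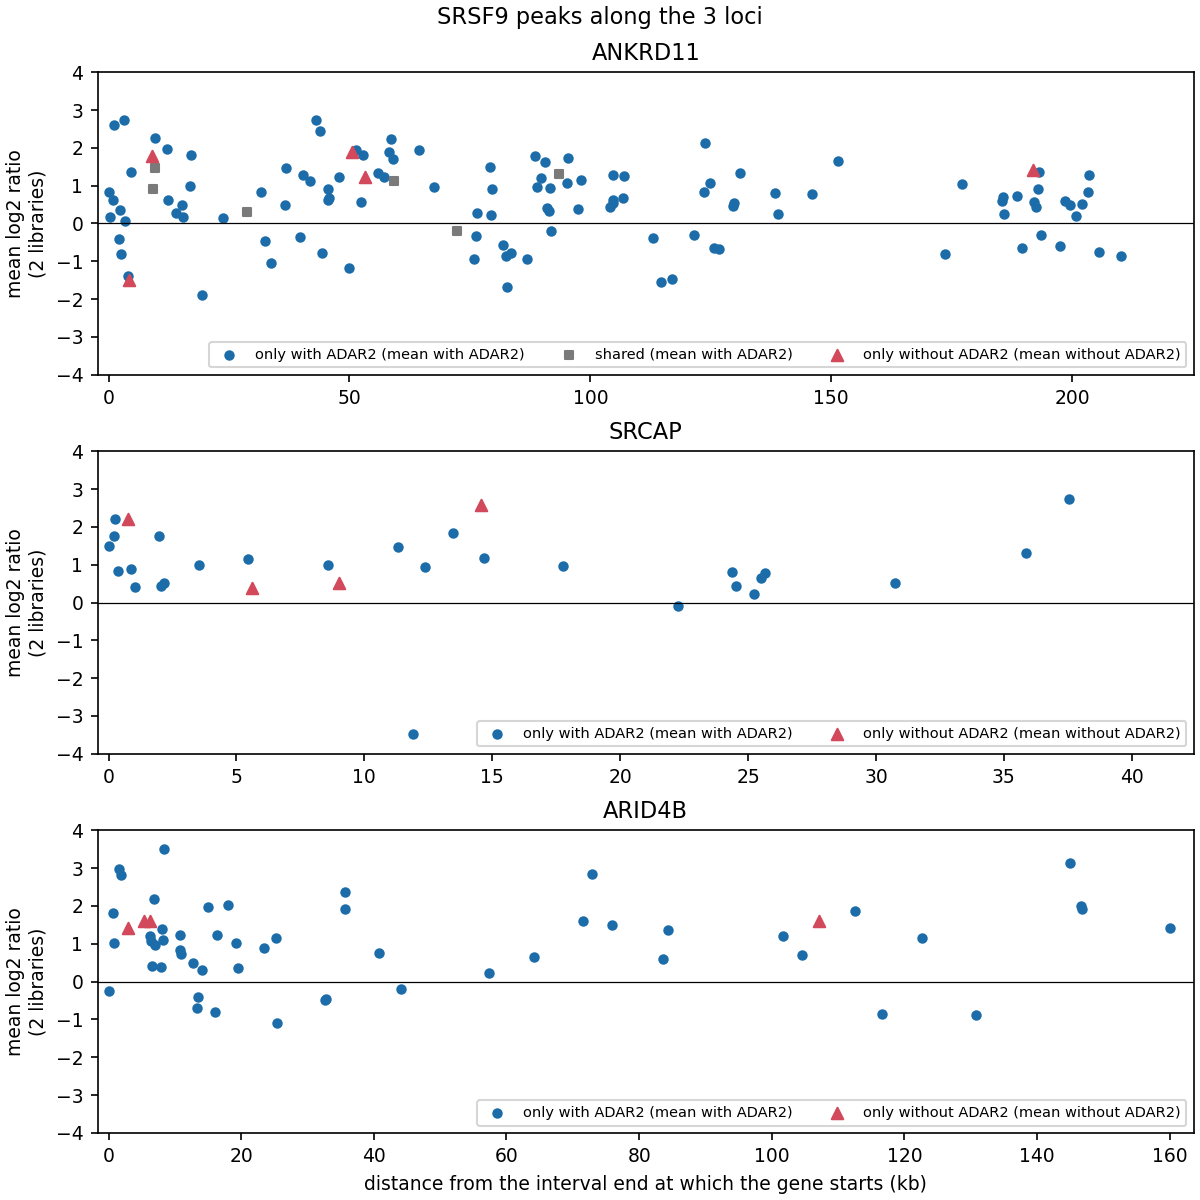
Mean log2 ratio of each peak on ANKRD11, SRCAP and ARID4B against its distance in kb from the interval end at which the gene starts; blue points are peaks only with ADAR2, grey squares shared peaks (both drawn at their mean with ADAR2) and red triangles peaks only without ADAR2 (drawn at their mean without it). SRCAP has a single deep peak at -3.47, and ANKRD11 has 30 peaks with ADAR2 below 0 spread along the gene.

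Identical values recurred among the peaks. The pair of 3.07 and 2.38 occurred in 67 peaks of the whole table. In the first library with ADAR2 the value 1.07 recurred in 12 of the 199 peaks of the 3 genes, and in the second the value 1.06 recurred in 11. In the first SRSF9-only library, the 19 peaks present without ADAR2 took 8 distinct values, of which 2.66 recurred in 6 peaks and 2.24 in 4. In the second SRSF9-only library the same 19 peaks took 18 distinct values. A coarse step between possible values sets how finely peaks can be ranked, and neighbouring ranks in the first SRSF9-only library are often ties.

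Most peaks found only without ADAR2 had a peak of the other condition nearby. Of the 13, 12 had a peak with ADAR2 within 1 kb, 92.3% (95% Wilson interval 66.7 to 98.6), against 63.2% in the whole table, a share below that interval. The 5 peaks of ANKRD11 lay 152 to 646 nt from one, and the 4 of SRCAP 70 to 377 nt. On ARID4B one peak lay 19 nt away and another 2508 nt. These genes are dense in peaks with ADAR2, and the part of that density in the closeness was not tested. Seen from the other side, 28 of the 193 peaks only with ADAR2, 14.5% (10.2 to 20.2), lay within 1 kb of one present without it, against 10.3% in the table. On SRCAP this was 33.3% (18.6 to 52.2).

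All but 1 of the peaks found only without ADAR2 had ratios above 0 in both libraries. These were 12 of 13, 92.3% (Wilson interval 66.7 to 98.6). Over the whole table the share was 76.6% of 4763 such peaks, inside that interval, so the count did not set these genes apart. The signs of both libraries agreed in every peak of the table, so the second library adds nothing to this count. On SRCAP, the highest, from 30724535 to 30724555, had 3.24 and 1.92 in the SRSF9-only libraries, and the next, from 30710754 to 30710770, had 2.66 and 1.75. The other SRCAP peaks, from 30718970 to 30719031 and from 30715587 to 30715623, had 0.85 and 0.19, and 0.66 and 0.13. SRCAP thus held a strong and a weak pair of such peaks. The strong pair lay 102 and 105 nt from a peak with ADAR2, and the weak pair 377 and 70 nt. The peak at 70 nt, the closest, was the weakest of them.

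On ANKRD11, the peak from 89506495 to 89506524 had 2.66 and 1.15 without ADAR2, and the peak from 89548046 to 89548073 had 2.66 and 0.89. The peaks from 89365193 to 89365226 and from 89503781 to 89503827 had 2.24 and 0.56, and 2.24 and 0.23. The peak from 89552809 to 89552851 was the exception, with -0.93 and -2.07, and it lay 152 nt from the nearest peak with ADAR2, which was itself below 0 with -1.45 and -1.36. On ARID4B, the peaks from 235384937 to 235384946 and from 235486633 to 235486668 both had 2.24 and 0.98. The peaks from 235485772 to 235485802 and from 235489078 to 235489092 had 2.66 and 0.56, and 2.66 and 0.20.

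The first SRSF9-only library gave the higher value in all 19 peaks present without ADAR2 on the 3 genes. Over the whole table it did so in 91.6% of 8565 peaks. The median of the difference, first minus second, was 1.51 on ANKRD11, 0.78 on SRCAP and 1.68 on ARID4B, against 0.84 over the table. Without ADAR2 the medians of the first and second library were 2.24 and 0.56 on ANKRD11 (11 peaks), 1.75 and 0.97 on SRCAP (4 peaks) and 2.45 and 0.77 on ARID4B (4 peaks). Each lay above the table's median of 1.07 or 0.24. The numbers of peaks above 1 therefore depended on the library. By the first SRSF9-only library alone, 7 of 11 ANKRD11 peaks, 2 of 4 SRCAP peaks and 4 of 4 ARID4B peaks were above 1. The second library alone put 3, 2 and 0 of them above 1. Over the 8565 peaks of the table the shares above 1 were 54.2% in the first library and 9.56% in the second. The 3 genes together had 13 of 19 above 1 in the first library (Wilson interval 46.0 to 84.6), which includes the table's share. In the second library they had 5 of 19 (11.8 to 48.8), and the table's share lies below that interval.

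Only the 6 shared regions of ANKRD11 have values in both conditions, and these lay on both sides of equality. The ratio with ADAR2 was above that without it in 3 regions and below it in 3, with a median difference of -0.46 on the log2 scale. Over all 3645 shared regions of the table the median difference was 0.62. With p-values from limma, adjusted by Benjamini-Hochberg over the whole table, 20.9% of the shared regions passed the threshold of 0.05, 18.5% higher and 2.41% lower with ADAR2. By the same limma fit 0 of the 6 ANKRD11 regions passed (1 at an unadjusted p under 0.05). ANKRD11 was chosen on this same contrast, so nothing is read from that count. Centring each library on its median over the shared regions brought 3 of the 6 past the threshold, all lower with ADAR2. After it, 23.5% of all shared regions passed. That centring lowered the median difference over the shared regions to 0.03.

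The region of ANKRD11 from 89528297 to 89528322 had 0.07 and 0.55 with ADAR2, against 2.98 and 0.39 without it. Its libraries overlapped between conditions, and the difference was -1.38 ± 0.59 (limma SE). Without the first SRSF9-only library it was -0.09. The SE was pooled over all shared regions and is the same for each, so it does not measure the spread of this region. The region from 89547754 to 89547785 had 0.48 and 1.35 with ADAR2, against 2.66 and 1.48 without it. The region from 89463551 to 89463622 had 1.45 and 1.19 with ADAR2, against 3.24 and 1.64 without it. In these 2 regions both libraries with ADAR2 lay below both without it, as they did in 9.22% of all shared regions, with differences of -1.15 and -1.13. Without the first SRSF9-only library these became -0.57 and -0.33.

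Both libraries with ADAR2 lay above both without it in 2 further regions, as in 49.9% of all shared regions. The region from 89547355 to 89547434 had 1.58 and 1.38 with ADAR2, against 0.66 and 0.65 without it. Its difference was 0.83 ± 0.59, with the same pooled limma SE. This region lies less than 1 kb from the region from 89547754, whose difference had the opposite sign. The region from 89497736 to 89497802 had 0.95 and 1.31 with ADAR2, against 0.66 and 0.30 without it. The region from 89484693 to 89484732 was below 0 in both conditions, with -0.19 and -0.18 with ADAR2, against -0.15 and -0.63 without it. An exact permutation test of 2 libraries against 2 cannot give a two-sided p below 0.333, so no single region was tested in that way.

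**Figure D5:**
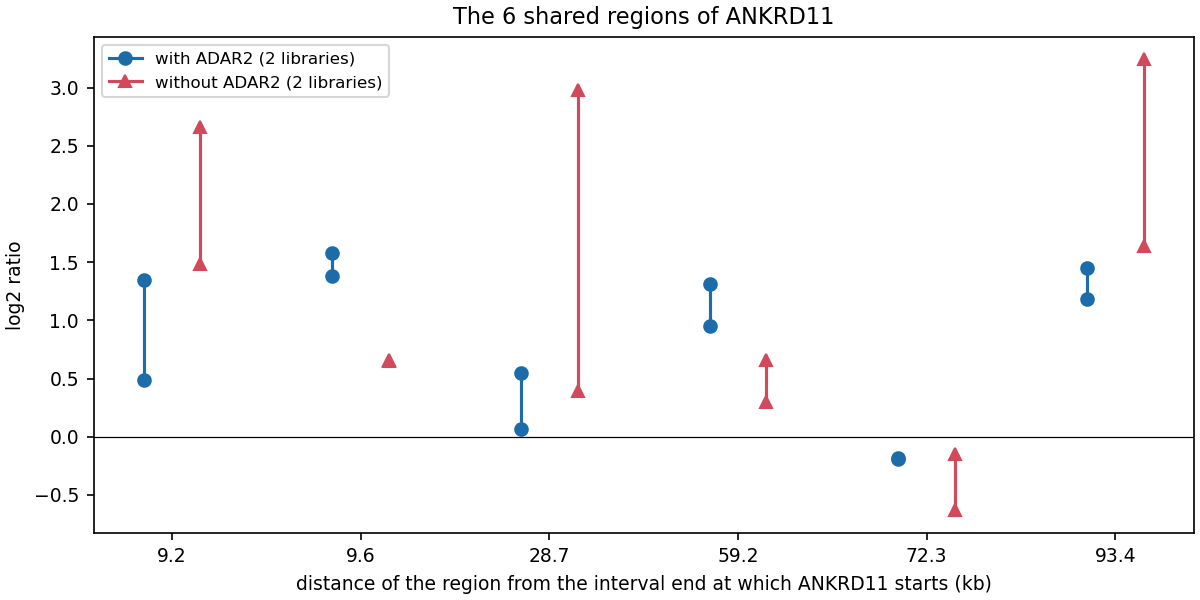
Log2 ratio of the 6 shared regions of ANKRD11 in the 2 libraries with ADAR2 (blue circles) and the 2 SRSF9-only libraries (red triangles), ordered by distance in kb from the interval end at which the gene starts; lines join the libraries of a condition. The SRSF9-only libraries lie up to 2.59 apart, more than the largest gap between the libraries with ADAR2. In the region at 9.6 kb the SRSF9-only libraries, at 0.66 and 0.65, lie closer together than those with ADAR2, at 1.58 and 1.38. In the region at 59.2 kb the gaps are nearly equal.

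Widths were close to those of the whole table, with some very narrow peaks on ANKRD11. The median width of peaks only with ADAR2 was 31 nt on ANKRD11, 33 nt on SRCAP and 39 nt on ARID4B, against 34 nt over the table. Peaks only without ADAR2 had medians of 34, 29 and 23 nt, against 32 nt. The 6 shared ANKRD11 peaks had a median of 53.5 nt, against 51 nt over all shared peaks. Peaks under 10 nt were 17 of 113 on ANKRD11, 15.04% (95% Wilson interval 9.61 to 22.8) of its peaks only with ADAR2. They were 2 of 27 on SRCAP and 3 of 53 on ARID4B, against 8.91% over the table, which lies below the interval of ANKRD11. Several of the narrow peaks were strong, such as the ANKRD11 peak of 2 nt from 89513148 to 89513149 with 1.81 and 3.06. Of the 17 on ANKRD11, 14 had a mean above 0 and 3 below it. The 3 included the lowest ANKRD11 peak, of 4 nt, with -2.15 and -1.64. None of the 19 peaks present without ADAR2 was narrower than 10 nt. The upper Wilson bound for this was 16.8%, and the table's share was 7.31%. Across the 119 ANKRD11 peaks with ADAR2, Spearman's rho between width and mean ratio was 0.26, against 0.05 across 27 on SRCAP, 0.10 across 53 on ARID4B and 0.09 over all peaks with ADAR2.

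Position along the gene and strength were weakly related. Spearman's rho between the distance from the start end and the mean ratio with ADAR2 was -0.13 across the 119 ANKRD11 peaks, -0.23 across the 27 SRCAP peaks and 0.01 across the 53 ARID4B peaks. On ANKRD11, peaks above 1 in both libraries were 26 of the 82 nearer to the start than to the other end and 5 of the 37 nearer to the other end. On ARID4B these were 18 of 41 and 6 of 12, and on SRCAP 6 of 18 and 2 of 9. In the crowded 10 kb at the start of ARID4B the 14 peaks with ADAR2 had medians of 1.44 and 1.16, against 0.88 and 1.06 over the 39 peaks further along. There 8 of 14 were above 1 in both libraries, against 16 of 39 further along, and 1 of 14 was below 0 in both, against 9 of 39. Between the first 20 kb and the remainder these differences were smaller or turned, with medians of 1.16 and 1.06 over 27 peaks, against 1.07 and 1.17 over 26.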

How the data were processed

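SRSF9 eCLIP peaks were taken from 1 deposited table for the whole series, which covers 2 libraries with SRSF9 and ADAR2 and 2 with SRSF9 alone. The deposited values are the authors' log2 ratios, with hg19 coordinates per the submitters' processing notes. No source used here gives the aligner, peak caller, thresholds, denominator or handling of replicates. The table has no header. A pair of columns was assigned to a condition because it holds 0 throughout the rows classed as absent there, and these 0 values were treated as missing. The values were read as log2 because they run below and above 0. No read depth is in the table.

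The genes and the measures shown were chosen with earlier results of these data known. Peaks overlapping an interval by at least 1 nt were counted, and positions are given from 1. Named peaks were, for each gene, the 3 highest and the lowest only with ADAR2, those only without ADAR2 and up to 6 shared regions. Rows of shared peaks with identical coordinates were averaged, and all shared regions were fitted with limma 3.58.1 in R 4.3.3, tested beforehand on simulated data. Intervals are Wilson 95%, from statsmodels 0.14.6. Gene strands, lengths and neighbours come from RefSeq and GENCODE on GRCh38, whose coordinates were not used. Peak sequences were not used here. Alternatives covered membership, merging, thresholds, centring, filters and leaving out a library.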

Additional observations from a re-analysis of the deposited data

How the results depend on the processing

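Requiring a peak to lie wholly inside its interval, counting identical coordinates once, merging peaks within 100 nt and keeping only peaks above 0 left the numbers of peaks for each gene and condition within 1.5 times the values above. A ratio above 1 in both libraries left 31, 8 and 24 peaks with ADAR2 on ANKRD11, SRCAP and ARID4B, and 3, 2 and 0 without it. None of these choices moved the share of peaks in the 10 kb at the start outside its interval. The share of ANKRD11 peaks below a level fell to 15.1% at -0.25 and 9.24% at -0.5, against 5.07% and 2.86% of the table, and that of ARID4B to 9.43% at -0.5. With each library centred on its median over the table, 57.1% of ANKRD11, 55.6% of SRCAP and 35.8% of ARID4B peaks with ADAR2 lay below 0 in both libraries, against 34.7% of the table. These levels, the centring of this share and the alternatives for the start share were added after the data were seen. The same centring turned the medians with ADAR2 to -0.60 and -0.32 on ANKRD11, -0.088 and -0.42 on SRCAP and -0.088 and 0 on ARID4B, and that of SRCAP in the first SRSF9-only library to 0.68, by its construction. Means in place of medians gave 1.12 and 0.92 on ARID4B with ADAR2. With each library centred on its median over the shared regions alone, limma called 459 shared regions higher and 396 lower with ADAR2. Without centring it called 763 shared regions, 675 higher and 88 lower with ADAR2. It called 82 among regions above 0 in every library and 146 above the median ratio, where fewer regions were tested, and 0 to 221 with 1 library left out (0 without either SRSF9-only library, with 1405 and 1051 at an unadjusted p under 0.05). Centring over the shared regions brought 3 ANKRD11 regions past the threshold, at -1.72, -1.97 and -1.74. The ANKRD11 region from 89484693 changed direction, to -0.39 after centring and lay between -0.038 and 0.44 with 1 library left out, the lowest being without the second SRSF9-only library. The cause was not tested. No paired analysis was possible because the columns carry no replicate number. Depth is unknown, so no error could be put on a single ratio.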
